A study of Homo sapiens with 6 samples.

Results

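The genes examined here carry pyruvate into the mitochondrion, oxidise it and feed the citric acid cycle. They were chosen by symbol, as 36 listed genes of pyruvate entry, the pyruvate dehydrogenase (PDH) complex and its regulators, the citric acid cycle, the malate shuttle and glutamine entry, and all 36 were among the 29483 genes of the table. RNA was sequenced from HK-2 cells, a single cell line established from the proximal tubule of a human kidney, in 6 libraries. All cells had been kept for 7 days in high D-glucose (HG) medium at 25 mM. The 3 case replicates received TEPP-46, a small molecule that activates the glycolytic enzyme PKM2, at 10 μM for 1 further day in this medium. The 3 control replicates were treated without TEPP-46, so the comparison asks what TEPP-46 changed in cells already under high glucose. Control replicates 1, 2 and 3 held 18634891, 17924033 and 17378710 reads on genes, and case replicates 1, 2 and 3 held fewer, at 16711934, 16047243 and 15363254. The study describes the replicates as independent and as treated separately, all from a single line.

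Pyruvate made by glycolysis enters the mitochondrion through the carrier MPC1/MPC2 and is turned into acetyl-CoA by the PDH complex, which PDH kinases switch off by phosphorylation and PDH phosphatases switch on again. The citric acid cycle joins acetyl-CoA to oxaloacetate and oxidises it, passing electrons to the respiratory chain, while carboxylases, transaminases and glutamate dehydrogenase refill or drain its intermediates. Proximal tubular cells of the kidney are known for their dependence on mitochondrial oxidation and for making glucose from cycle intermediates.

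Among these genes the case group had more GOT1, PCK2 and FH RNA and less OGDH and PDP2 RNA than the control group. GOT1 is the cytosolic aspartate transaminase, PCK2 the mitochondrial phosphoenolpyruvate carboxykinase and FH fumarase, while OGDH is the catalytic subunit of the oxoglutarate dehydrogenase complex and PDP2 a PDH phosphatase. The changes were moderate, between 0.703-fold for OGDH and 1.55-fold for GOT1. Of the 36 genes, 35 had a mean of at least 0.5 FPKM (the read count per length of gene and per depth of library) and were tested by limma. With the Benjamini-Hochberg method over all 13599 tested genes, 3 were upregulated and 2 downregulated at an adjusted p of at most 0.05, which is 14.3% of the 35. Of all tested genes 13.2% passed the same threshold, 7.34% up and 5.84% down, so the share among these genes was near the background. The groups did not overlap for 12 of the 35, with 7 higher and 5 lower in the case group (34.3%), against 39.9% of all tested genes. The median log2(FC) was 0.0082 over the 35 genes and -0.0017 over all tested genes, and no member reached an absolute log2(FC) of 1. In RNA from whole cultures, fewer cells that express a gene and less of its RNA per cell cannot be told apart.

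**Figure D1:**
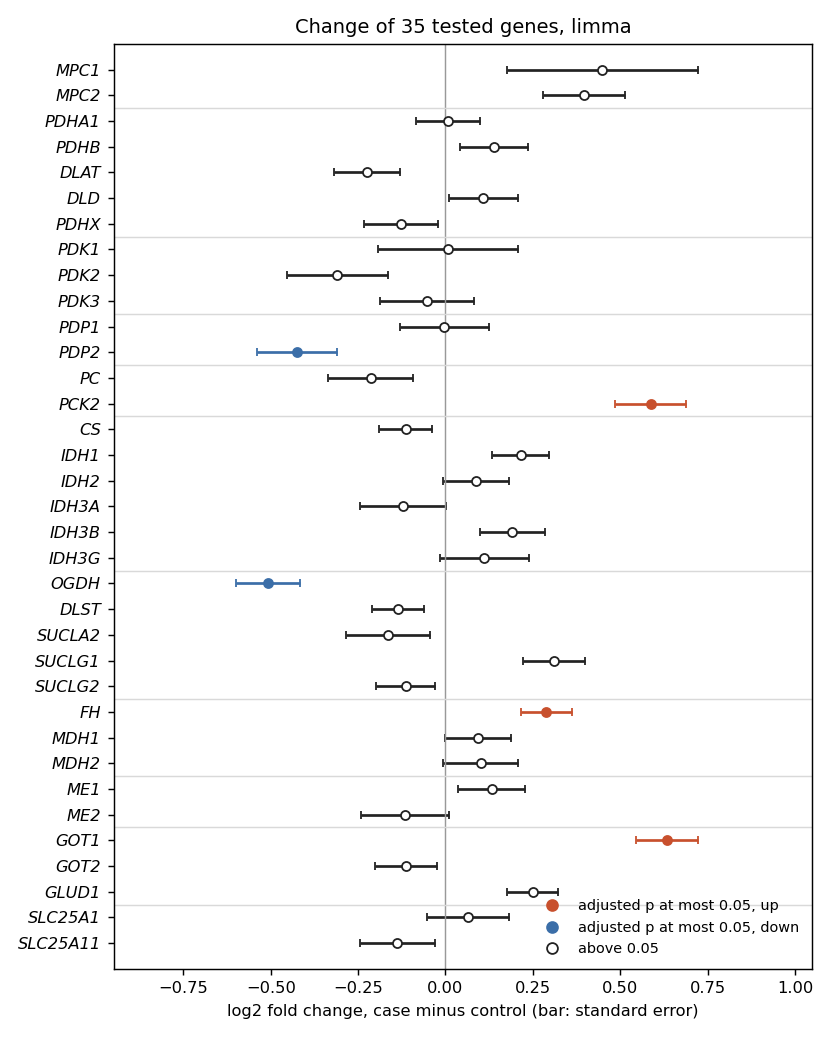
The log2(FC) of the 35 tested genes, case minus control, from limma on log2(scaled FPKM + 0.1), ordered by role from the pyruvate carriers at the top to the metabolite carriers at the bottom, with bars of 1 standard error. Filled points (3 up, 2 down) had an adjusted p of at most 0.05, and most open points lie within 0.25 of 0.

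The levels below are FPKM divided by a median-of-ratios factor of each library, called scaled FPKM, so that they stand on the scale of the test. They are given as mean ± SD with n = 3 in each group. MDH2, GOT2 and SLC25A1 had the highest control means of the set, with 138 ± 1.85, 109 ± 4.0 and 80.7 ± 1.99 scaled FPKM. PDK1 and PDK4 had the lowest, with 0.791 ± 0.0327 and 0.541 ± 0.180. FPKM divides by length, and PDK1 has the longest of the tested genes behind it, 14883 bases. By reads PDK1, with 165 to 222 in a library, was above PDK3, with 83 to 127, and MPC1, with 42 to 82. The reads behind a value ranged from 15 for PDK4 in case replicate 1 to 9797 for MDH2, so the precision was lowest for the PDH kinases and MPC1. In the plot of levels by library, differences between genes are far larger than those between groups.

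**Figure D2:**
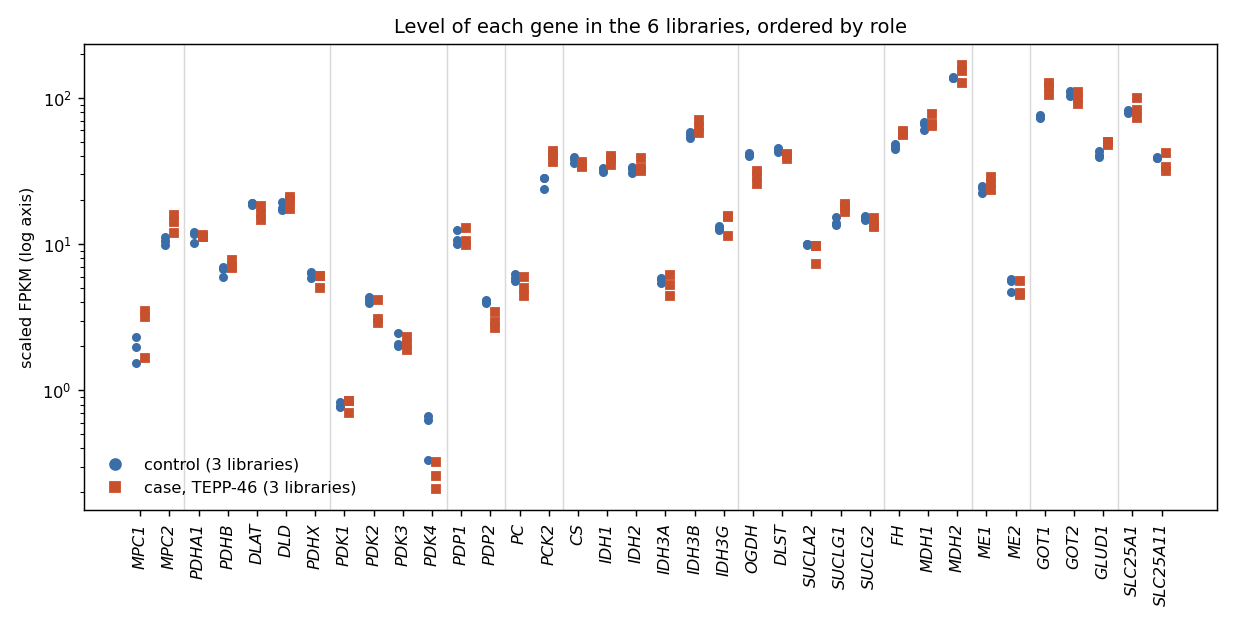
Scaled FPKM (log axis) of the 36 genes in each of the 6 libraries, circles for the 3 control and squares for the 3 case replicates, with vertical lines between roles. Levels span from MDH2 at 138 in the control mean to PDK4 at 0.541, and the groups lie close together for most genes.

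The pyruvate carrier is built of MPC1 and MPC2. MPC2 had 11.3, 10.5 and 9.86 scaled FPKM in the control and 14.1, 11.9 and 15.9 in the case replicates. All case libraries were above all control libraries, with case replicate 2 just above the highest control. The log2(FC) of MPC2 was 0.40 (standard error 0.118), and an adjusted p of 0.0603 by limma missed the threshold. It was called without case replicate 2, with a log2(FC) of 0.51 and an adjusted p of 0.0145. MPC1 was low, at 1.94 ± 0.383 scaled FPKM in the control and 2.78 ± 0.974 in the case group, and the groups overlapped because case replicate 2 had only 1.67. Its log2(FC) was 0.45 with a standard error of 0.273 and an adjusted p of 0.285. Without case replicate 2, and in no other fit with a library left out, MPC1 was called as well, with 0.77 and an adjusted p of 0.0258 by limma. Over all libraries left out in turn the log2(FC) of MPC1 ran from 0.26 to 0.77.

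None of the 5 genes of the PDH complex passed the threshold, and their log2(FC) ran from -0.22 to 0.14. The E1 subunits PDHA1 and PDHB, which decarboxylate pyruvate, had log2(FC) values of 0.0082 and 0.14. The E3 subunit DLD, shared with the oxoglutarate dehydrogenase complex, had 0.11, and the E3-binding protein PDHX had -0.13. DLAT, the E2 acetyltransferase core, had 18.6, 19.1 and 19.0 scaled FPKM in the control and 14.6, 18.1 and 16.1 in the case replicates. The 3 controls were nearly alike, every case library lay below them, and case replicate 2 came closest. The log2(FC) of DLAT was -0.22 with a standard error of 0.095 and an adjusted p of 0.144 by limma. Without case replicate 2 it was -0.30 with an adjusted p of 0.0318, and without case replicate 1 it was -0.14 with an adjusted p of 0.210.

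The PDH kinases phosphorylate the E1 subunit and switch the complex off. PDK2 was the most abundant of them per length, and had 4.36, 3.98 and 4.12 scaled FPKM in the control and 4.16, 2.88 and 3.08 in the case replicates. Case replicate 1 lay among the controls and the other case libraries lay below them. The log2(FC) of PDK2 was -0.31 with a standard error of 0.144 and an adjusted p of 0.177 by limma, and without case replicate 1 it was -0.46 with an adjusted p of 0.0232. PDK1 and PDK3 had log2(FC) values of 0.0073 and -0.053 with overlapping groups. PDK4, the isoform induced in fasting, was below the filter and was not tested. It had 0.624, 0.335 and 0.664 scaled FPKM in the control and 0.210, 0.259 and 0.322 in the case replicates. These values rest on 54, 28 and 54 reads and on 15, 19 and 22 reads, with every case library below the lowest control, and without the filter the adjusted p by limma was 0.273 at a log2(FC) of -0.78.

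The PDH phosphatases undo this phosphorylation. PDP2 (chr16:66878589-66895754, plus strand of GRCh38) had 3.98, 4.06 and 4.14 scaled FPKM in the control and 2.94, 3.43 and 2.67 in the case replicates. The controls were tightly grouped and every case library lay below them, case replicate 2 the least. PDP2 was downregulated with a log2(FC) of -0.42, a standard error of 0.115 and an adjusted p of 0.0480 by limma, which is 0.745-fold. This call was close to the threshold. The adjusted p was 0.0647 without case replicate 1, between 0.133 and 0.158 without case replicate 3 or any single control replicate, between 0.0502 and 0.107 in 6 of 13 other alternatives and 0.0137 without case replicate 2. PDP1, the phosphatase with the higher level at 11.0 ± 1.24 scaled FPKM in the control and 11.0 ± 1.6 in the case group, had a log2(FC) of -0.0028 with an adjusted p of 0.989. The ratio of PDP2 to PDP1, which does not depend on the scaling between libraries, was 0.396, 0.382 and 0.333 in the control and 0.3001, 0.267 and 0.255 in the case replicates. These ranges did not overlap, which restates the difference in PDP2 beside a partner with little change.

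**Figure D3:**
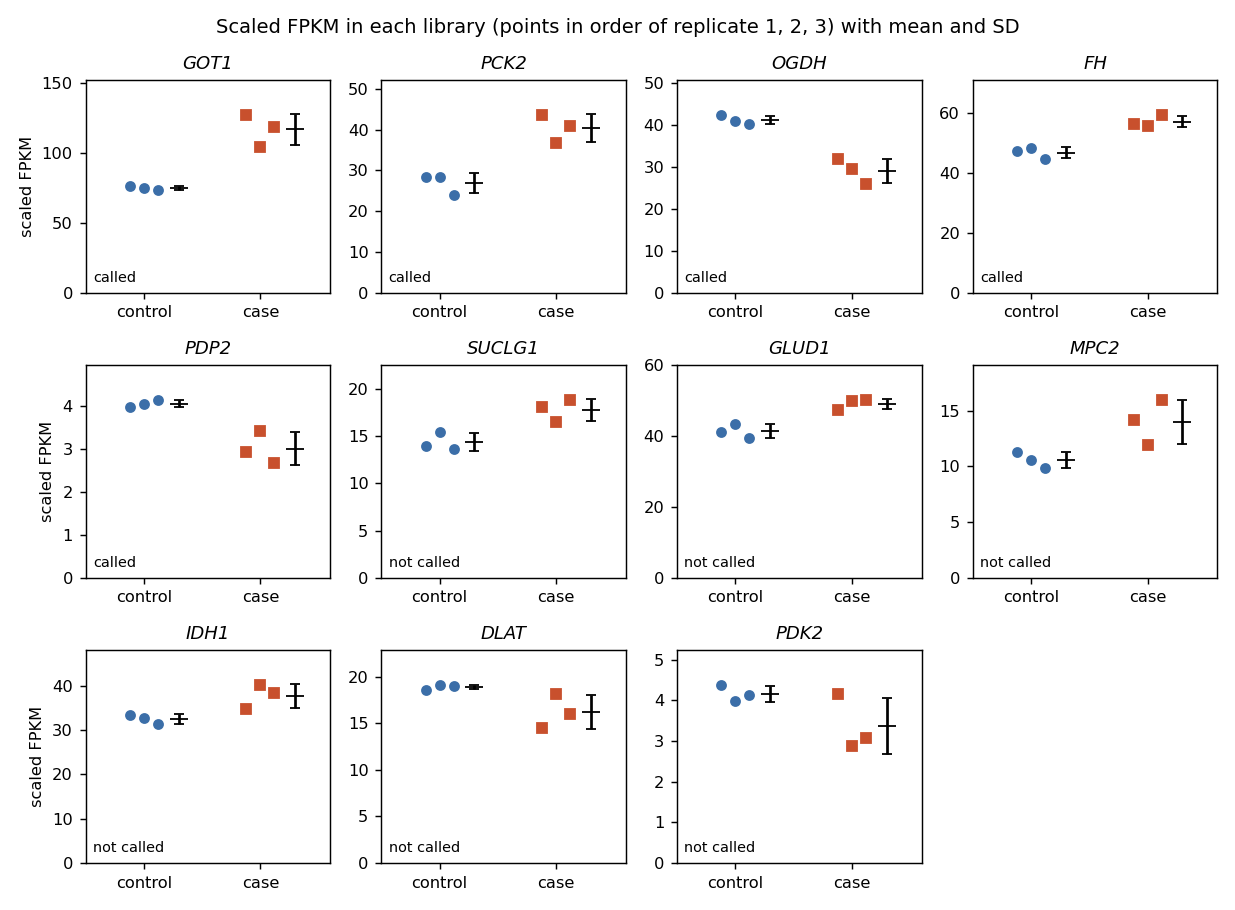
Scaled FPKM in each library for the 5 genes called and the 6 with the next smallest p, on axes that start at 0, with circles for control, squares for case, and a bar for mean and SD beside each group. The groups are separate for all but PDK2, and the SD is larger in the case group for all of them but GLUD1.

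Pyruvate carboxylase (PC) makes oxaloacetate from pyruvate, and PCK2 turns mitochondrial oxaloacetate into phosphoenolpyruvate. PCK2 (chr14:24094053-24110598, plus strand) had 28.3, 28.5 and 24.0 scaled FPKM in the control and 43.5, 36.8 and 41.0 in the case replicates. Every case library lay well above every control, with case replicate 2 the lowest of its group. PCK2 was upregulated with a log2(FC) of 0.59, a standard error of 0.101 and an adjusted p of 0.0159 by limma, or 1.5-fold. The gene overlaps NRL on the other strand, and whether the libraries keep strand is not given in the sources used here. The adjusted p of PCK2 rose to between 0.0636 and 0.0740 without case replicate 3 or any single control replicate, at log2(FC) values of at least 0.50. PC had 5.91 ± 0.287 scaled FPKM in the control and 5.12 ± 0.786 in the case group, a log2(FC) of -0.21 and an adjusted p of 0.256.

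Citrate synthase (CS) starts the cycle, the NAD-dependent isocitrate dehydrogenase (IDH3A, IDH3B, IDH3G) carries the next oxidation, and IDH1 in the cytosol and IDH2 in the mitochondrion make NADPH from isocitrate. None of these 6 genes was called, and their log2(FC) ran from -0.12 to 0.22. IDH1 had 33.4, 32.7 and 31.3 scaled FPKM in the control and 34.8, 40.1 and 38.5 in the case replicates. The groups were separate, with case replicate 1 just above the highest control. Its log2(FC) was 0.22 with a standard error of 0.082 and an adjusted p of 0.111 by limma. Without case replicate 1 it was 0.28 with an adjusted p of 0.0313, the only call among the 6 fits with a library left out. CS, IDH2 and IDH3A had log2(FC) values of -0.11, 0.087 and -0.12, and IDH3B and IDH3G had 0.19 and 0.11, with overlapping groups in all 5. IDH3G was called without case replicate 2, with 0.26 and an adjusted p of 0.0424 by limma. Without case replicate 1 it had 0.035 and an adjusted p of 0.8645.

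OGDH, DLST and DLD form the complex that turns 2-oxoglutarate into succinyl-CoA. OGDH (chr7:44606572-44709066, plus strand) had 42.4, 41.1 and 40.3 scaled FPKM in the control and 31.8, 29.4 and 25.9 in the case replicates. Every case library was far below the lowest control, and case replicate 3 was the lowest. OGDH was downregulated with a log2(FC) of -0.51, a standard error of 0.091 and an adjusted p of 0.0176 by limma. Leaving out case replicate 3 or any single control replicate gave adjusted p-values between 0.0572 and 0.0869, at log2(FC) values between -0.57 and -0.43 over all libraries left out in turn. DLST, the E2 subunit of the same complex, had 44.1 ± 1.57 scaled FPKM in the control and 40.1 ± 1.78 in the case group, and although the groups did not overlap its log2(FC) of -0.14 had an adjusted p of 0.235. Within each library the ratio of OGDH to DLST was 0.965, 0.897 and 0.944 in the control and 0.765, 0.724 and 0.680 in the case replicates, a description that rests on the same OGDH values.

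Succinyl-CoA synthetase pairs the common subunit SUCLG1 with SUCLA2, which makes ATP, or with SUCLG2, which makes GTP. SUCLG1 had 14.0, 15.4 and 13.6 scaled FPKM in the control and 18.1, 16.5 and 18.8 in the case replicates. The case libraries all lay above the controls. Its log2(FC) of 0.31 had a standard error of 0.088 and an adjusted p of 0.0551 by limma, just over the threshold, and without case replicate 2 the adjusted p was 0.0247. SUCLA2 and SUCLG2 had log2(FC) values of -0.16 and -0.11, with adjusted p-values of 0.368 and 0.382. SUCLA2 was low mainly in case replicate 1, at 7.38 scaled FPKM against 9.75 and 9.73 in the other case libraries. The ratio of SUCLG1 to SUCLG2 was 0.926, 0.991 and 0.927 in the control and 1.37, 1.21 and 1.24 in the case replicates. This ratio exceeded every control value in each case library, as SUCLG1 itself did.

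FH hydrates fumarate to malate, and malate dehydrogenase, cytosolic MDH1 or mitochondrial MDH2, oxidises malate to oxaloacetate. FH (chr1:241497511-241519799, minus strand) had 47.3, 48.3 and 44.8 scaled FPKM in the control and 56.4, 55.7 and 59.3 in the case replicates. The 3 case libraries were close to each other and all above the controls. FH was upregulated with a log2(FC) of 0.29, a standard error of 0.072 and an adjusted p of 0.0391 by limma, which is 1.22-fold. This call depended on the processing. The adjusted p by limma was 0.0785 without the intensity trend, 0.0657 when low genes were kept and 0.0782 for FPKM as deposited. With the replicate number as a block it was 0.0705, after quantile normalization 0.176 and for TPM 0.398, where the log2(FC) was 0.090. It was between 0.111 and 0.161 without case replicate 3 or any single control replicate. MDH1 and MDH2 had log2(FC) values of 0.093 and 0.10, with adjusted p-values of 0.529 and 0.553. MDH2 spread widely in the case group, at 168, 126 and 154 scaled FPKM against 140, 137 and 137 in the control, so that case replicate 2 lay below every control and the others above. The malic enzymes, cytosolic ME1 and mitochondrial ME2, turn malate into pyruvate and had log2(FC) values of 0.13 and -0.12 with overlapping groups.

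GOT1 and GOT2 exchange amino groups between aspartate and 2-oxoglutarate in the cytosol and the mitochondrion and are part of the malate-aspartate shuttle, and GLUD1 turns glutamate into 2-oxoglutarate. GOT1 (chr10:99396870-99430624, minus strand) had 76.4, 74.8 and 73.3 scaled FPKM in the control and 127, 104 and 118 in the case replicates. The controls were nearly equal, and even case replicate 2, the lowest of its group, was far above them. GOT1 was upregulated with a log2(FC) of 0.63, a standard error of 0.088 and an adjusted p of 0.0102 by limma, the smallest among the 35 genes. Its adjusted p was between 0.0509 and 0.0642 without case replicate 3 or any single control replicate, at log2(FC) values of at least 0.575. GOT2 had 104, 112 and 110 scaled FPKM in the control and 110, 91.4 and 100 in the case replicates, with a log2(FC) of -0.11 and an adjusted p of 0.403. It was called down after quantile normalization, at -0.29 with an adjusted p of 0.0209, and for TPM, at -0.31 with an adjusted p of 0.0193. GLUD1 had 41.0, 43.4 and 39.6 scaled FPKM in the control and 47.5, 49.8 and 50.05 in the case replicates. All case libraries lay above the controls. The log2(FC) of GLUD1 was 0.25 with a standard error of 0.074 and an adjusted p of 0.0590 by limma, and without case replicate 1 the adjusted p was 0.0336. GLUD1 shares nearly all of its coding sequence with GLUD2, which had 0.0431 to 0.157 FPKM, and overlaps SHLD2 on the other strand.

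SLC25A1 exports citrate from the mitochondrion, and SLC25A11 exchanges malate for 2-oxoglutarate. Neither was called. SLC25A1 had a log2(FC) of 0.065, with 101 scaled FPKM in case replicate 1 and 72.5 in case replicate 2 on either side of all controls. SLC25A11 had 39.8, 39.0 and 38.8 scaled FPKM in the control and 41.9, 31.9 and 33.7 in the case replicates. Case replicate 1 lay above the controls and the other case libraries below. Its log2(FC) was -0.14 with an adjusted p of 0.405 by limma, and without case replicate 1 it was -0.25 with an adjusted p of 0.0354. Over all libraries left out in turn the log2(FC) of SLC25A11 ran from -0.25 to -0.059.

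For genes that make the same enzyme as isoforms or in different compartments, and for the subunits of IDH3 and of the pyruvate carrier, the share of each in their summed FPKM was compared between the groups. GOT1 held 42.3%, 40.1% and 39.9% of the GOT1 and GOT2 sum in the control and 53.5%, 53.3% and 54.1% in the case replicates. The cytosolic form thus passed from the smaller to the larger share of FPKM in every case library. This crossing rests on the lengths that divide the reads, 2424 bases for GOT1 and 3766 for GOT2. By reads GOT1 stayed below GOT2 in the case replicates, with 4842, 4101 and 4341 against 6546, 5587 and 5715. The mean shares of FPKM were 40.8% ± 1.34 and 53.6% ± 0.446 (SD, n = 3). The exact permutation test gave p = 0.1, two-sided, the smallest that 3 against 3 libraries allow. After adjustment over the 13 shares compared it was 0.433. The shares of IDH3B within the IDH3 subunits, 75.0% ± 0.348 against 76.8% ± 0.490, and of PDK3 within the PDH kinases, 28.4% ± 1.79 against 32.1% ± 0.645, did not overlap either and had the same p-values. PDK2 remained the largest share of the kinases, 54.2% ± 1.28 in the control and 51.3% ± 4.24 in the case group, with p = 0.4 by the exact permutation test. The other 9 shares overlapped between the groups.

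**Figure D4:**
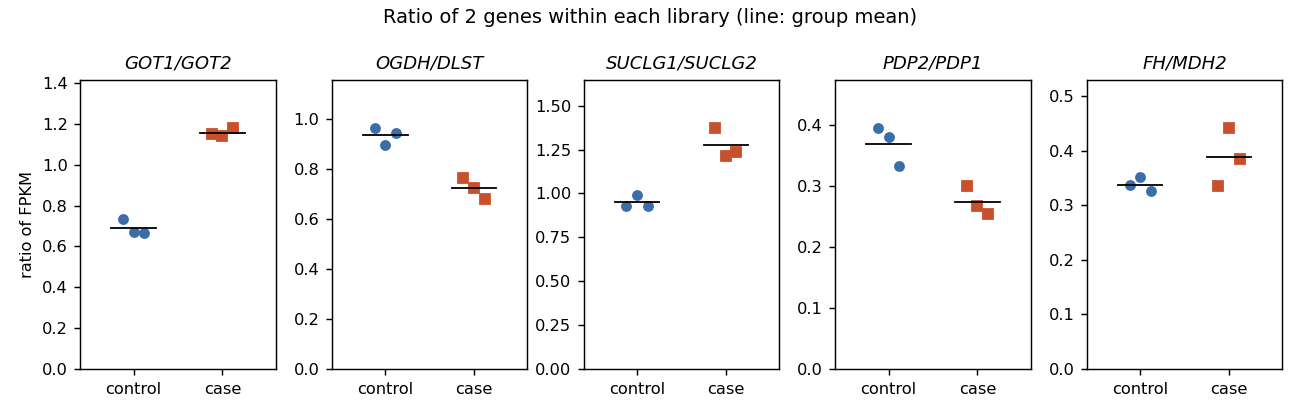
Ratio of the FPKM of 2 genes within each library, circles for control and squares for case, on axes that start at 0, with a line at each group mean. GOT1/GOT2 lies between 0.665 and 0.734 in the control and between 1.14 and 1.18 in the case replicates, OGDH/DLST, SUCLG1/SUCLG2 and PDP2/PDP1 are also separate, and FH/MDH2 overlaps.

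The case libraries differed from each other more than the controls did. The median SD of the log2 values over the 35 genes was 0.066 in the control and 0.145 in the case group, and over all tested genes it was 0.089 and 0.19. On the first principal component of all tested genes, which held 37.2% of the variance, the controls lay at -22.9, -27.8 and -23.7 and the case replicates at 30.5, 9.54 and 34.4, so case replicate 2 was nearest to the controls. On the second, with 24.2%, case replicate 1 stood apart at 36.8 from -27.2 and -19.3 in the other case replicates. GOT1, PCK2, OGDH and FH were called both without case replicate 1 and without case replicate 2. Without case replicate 2, 7 members were up and 3 down, adding MPC1, MPC2, IDH3G, SUCLG1 and DLAT, while 25.7% of all tested genes were called. Without case replicate 1, 5 were up and 3 down, adding GLUD1, IDH1, PDK2 and SLC25A11 and losing PDP2, against 16.8% of all genes. Without case replicate 3 or any single control replicate, 0 members were called by limma, with 7 or 8 at an unadjusted p under 0.05. In these fits few genes of any kind were called, 1.41% of all tested genes without case replicate 3 and 0.771%, 0.507% and 0.64% without control replicates 1, 2 and 3, so 0 of 35 was near the background. On whole reads recovered from the FPKM, limma with voom called 5 up and 2 down, adding SUCLG1 and MPC2, against 20.7% of all genes.

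**Figure D5:**
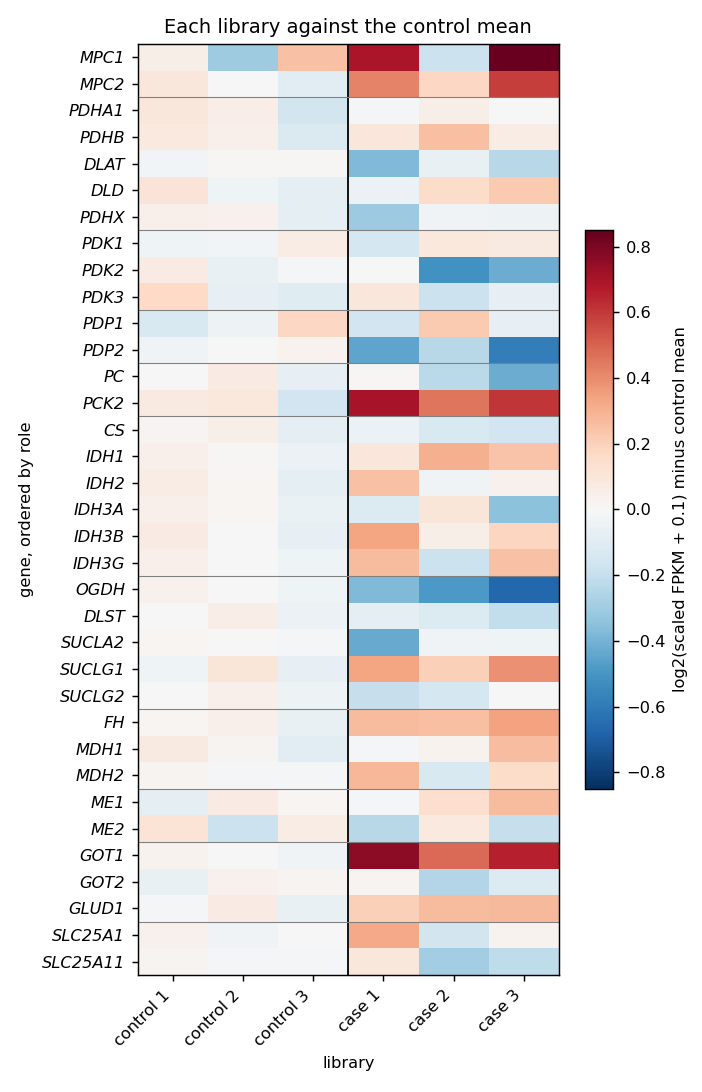
Difference of log2(scaled FPKM + 0.1) from the control mean for the 35 tested genes (vertical, ordered by role) in the 6 libraries (horizontal), red for higher and blue for lower. PCK2, GOT1 and OGDH have the same direction in the 3 case libraries, while MPC1, PDK2, MDH2, SLC25A1 and SLC25A11 differ among them.

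Gene length moved with the change. Across the 35 genes Spearman's rho between gene length and log2(FC) was -0.534, and across 13595 tested genes with a length it was -0.357. These are descriptions across genes that share the 6 libraries and their scaling. GOT1 and FH, which rose, have lengths of 2424 and 2142 bases behind their FPKM and PCK2 has 4189, while OGDH and PDP2, which fell, have 5210 and 8364, against a median of 4189 over the 35 genes. The part of gene length in these results was not tested.

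Of 38 further genes of the same pathway, 31 were tested, 3 were upregulated and 5 downregulated (25.8%, against 13.2% of all tested genes). Their median log2(FC) was -0.044. The glutamine carrier SLC1A5 rose from 77.2 ± 3.68 to 121 ± 9.97 scaled FPKM, a log2(FC) of 0.65 with an adjusted p of 0.00917 by limma. The alanine transaminase GPT2 rose from 18.8 ± 0.184 to 25.9 ± 2.68 with a log2(FC) of 0.45, and SDHD, a membrane anchor of succinate dehydrogenase, from 17.4 ± 1.07 to 26.4 ± 4.16 with 0.58, at adjusted p-values of 0.0224 and 0.0233. PDPR, the regulatory subunit of the PDH phosphatase, fell from 3.93 ± 0.218 to 2.15 ± 0.491 with a log2(FC) of -0.86 and an adjusted p of 0.0193. DHTKD1, an oxoadipate dehydrogenase related to OGDH, had a log2(FC) of -0.44. ACLY, which splits cytosolic citrate, had -0.43, the transhydrogenase NNT -0.40 and the cytosolic aconitase ACO1 -0.27, all at adjusted p-values between 0.0323 and 0.0481. The 3 genes nearest to the threshold were OGDHL with -0.61, SDHB with 0.29 and SLC25A13, a mitochondrial aspartate/glutamate carrier, with -0.20, at adjusted p-values of 0.0892, 0.0927 and 0.1505. None of the 8 calls remained without control replicate 2 or control replicate 3, where 0.507% and 0.64% of all tested genes were called. GLS2, GLUD2, GPT and ACSS1 were below the filter, and PCK1, MPC1L and PDHA2 were not analysed here.

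The promoters of these genes were searched for a list of short motifs. RefSeq windows of GRCh38.p14, from 250 bases before to 50 after a start, were matched for 34 of the 36 genes, all but OGDH and PDP1, with 45 windows in all. Letters were read on both strands. The C/EBP-ATF response element (CARE), TGATGNAA, was in windows of 2 members, GOT1 and SLC25A11 (4.44% of the 45 windows), and in 3.62% of all 35116 promoters. The E-box CACGTG was in windows of PDP2, PDHB and PDK2 (6.67%) and in 7.26% of all promoters. The stretches of 250 bases before the start of GOT1 (chr10:99430625-99430874, minus strand), SLC25A11 (chr17:4940047-4940296, minus strand) and PDP2 (chr16:66880265-66880514, plus strand) are shown because GOT1 rose, SLC25A11 holds the same element without being called, and PDP2 fell. The PDP2 stretch lies inside the gene as placed above, in an intron of a transcript that starts further upstream, because RefSeq's start is downstream of the first start in the annotation. Capitals mark the CARE, read on the opposite strand, in GOT1 and SLC25A11 and the E-box in PDP2.
GOT1: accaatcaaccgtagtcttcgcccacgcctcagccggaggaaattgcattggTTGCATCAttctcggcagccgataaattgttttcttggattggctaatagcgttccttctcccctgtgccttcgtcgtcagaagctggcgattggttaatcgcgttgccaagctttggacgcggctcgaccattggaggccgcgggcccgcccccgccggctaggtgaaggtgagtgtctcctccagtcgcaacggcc
SLC25A11: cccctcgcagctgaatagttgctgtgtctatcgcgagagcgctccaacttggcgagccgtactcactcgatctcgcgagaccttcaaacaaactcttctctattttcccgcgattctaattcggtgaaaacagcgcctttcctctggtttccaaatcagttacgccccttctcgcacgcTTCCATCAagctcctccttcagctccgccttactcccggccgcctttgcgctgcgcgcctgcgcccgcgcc
PDP2: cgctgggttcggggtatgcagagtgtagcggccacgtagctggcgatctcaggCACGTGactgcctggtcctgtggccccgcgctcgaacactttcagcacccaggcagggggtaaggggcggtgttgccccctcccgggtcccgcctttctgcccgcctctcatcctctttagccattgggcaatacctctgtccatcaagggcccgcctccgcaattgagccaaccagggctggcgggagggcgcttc
With the base before the start counted as -1, the element began at -198 in GOT1 and at -71 in SLC25A11, and the E-box at -197 in PDP2. The hypoxia response core ACGTG, which lies within the E-box, was in windows of 11 members (24.4%) and in 21.4% of all promoters, which is near the background. The ETS letters CCGGAAG were found in 5 members (11.1% of the windows and 10.3% of all promoters), the heat shock letters GAANNTTC in 3 (6.67% and 6.77%) and the estrogen-related receptor letters AAGGTCA in SUCLA2 alone (2.22% and 3.92%). NRF1 (GCGCATGCG) and CRE (TGACGTCA) letters were in no member's window, against 1.92% and 1.85% of all promoters. A match is a description of the letters and not a site in use.

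The cell type labels were set against markers. The keratins KRT8, KRT18 and KRT19 of simple epithelia were abundant, KRT19 most at 346 FPKM on average. VIM was upregulated with a log2(FC) of 0.66 (adjusted p 0.0204 by limma) and CDH1 downregulated with -0.64 (adjusted p 0.0156). PAX8 and PAX2 were below the filter, and CDH2, HNF4A, DCN, PTPRC, CD3E, UMOD and AQP2 were not analysed here. The 7 markers of differentiated proximal tubule in the table, CUBN, LRP2, AQP1, SLC34A1, SLC5A2, GGT1 and ANPEP, summed to between 0.238 and 0.493 FPKM, GGT1 the most abundant, and LRP2 was at 0 in every library but control replicate 2. Fibroblast markers in the table summed to at most 0.450 FPKM and the endothelial ones to at most 0.0650, and the leukocyte marker CD68, the podocyte marker NPHS1 and the distal tubule marker SLC12A1 did not exceed 0.0297, 0.119 and 0.00860. The part of VIM and CDH1 in the changes of the cycle genes was not tested.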

How the data were processed

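The 6 libraries were 3 control and 3 case replicates of HK-2 cells. The authors filtered the reads, aligned them to GRCh38.p13 with HISAT2 2.1.0, counted them on genes with HTSeq 0.6.0, and deposited FPKM values, which are the values used here; their own test was DESeq2 on read counts, which were not used here. RNA selection, strandedness and annotation version are not given in the sources used here.

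Each library's FPKM was scaled by a median-of-ratios factor over genes with a mean of at least 0.5 FPKM, log2-transformed after 0.1 was added, and tested in those genes with limma 3.58.1 in R 4.3.3 with an intensity trend and no covariates, with Benjamini-Hochberg adjustment and a threshold of 0.05. Fold changes are on this log2 scale, which understates changes of low genes. Shares within libraries were compared by exact permutation tests, two-sided, and ratios were described. Library depth and whole reads were recovered from the steps of the FPKM values, within 0.001 of a whole number, with the annotated exon length for 12011 of the 27922 genes above 0 and another length for 14253, and 1658 were not resolved. No molecular identifiers are given, so reads may not be independent molecules. Gene positions were from GENCODE 44. Processed pseudogenes of DLST, FH, GLUD1, GOT2, MDH1, ME2, PDHA1, SUCLA2 and SUCLG2 are annotated, and how reads shared with them were assigned is not given in the sources used here. MPC2, IDH1, DLAT, PDK2 and SUCLG1 overlap genes on the other strand (DCAF6, IDH1-AS1, PIH1D2, SAMD14 and a long noncoding RNA).

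The members, lists and tests were chosen with earlier results of these data known. All 36 members were named, with full statistics for those called and the 6 with the next smallest p. Of the other pathway genes, those called and the next 3 were named. Some cell type markers are not reported here. The procedure was tested on simulated data. Alternatives were pseudocounts of 1 and 0.01, other filters, FPKM as deposited, quantile normalization, TPM, TMM factors, no trend, robust estimation, voom on recovered reads, the replicate number as a block and each library left out.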

Additional observations from a re-analysis of the deposited data

How the results depend on the processing

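GOT1 and PCK2 rose and OGDH fell at an adjusted p of at most 0.05 in limma under all 13 alternatives other than leaving out a library, with log2(FC) from 0.43 to 0.71, 0.39 to 0.65 and -0.71 to -0.43 over all 19 alternatives, and were called in 2 of the 6 with a library left out (without case replicate 1 and without case replicate 2). FH was called in 9 and PDP2 in 8 of the 19. The cause of the calls lost was not tested.

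Members called numbered 3 up and 2 down. Members down became 1 without the filter, without the intensity trend, with robust estimation and with factors over all genes above 0, an alternative chosen after seeing the data. Members up became 5 with a mean of at least 1 FPKM, where 1126 up and 914 down of 11663 genes were called, and with voom. With TPM, which moved the median of all tested genes by -0.19, members were 2 up and 9 down, with FH lost and DLAT, PDK2, PC, CS, DLST, GOT2 and SLC25A11 added. With quantile normalization they were 2 up and 2 down, with FH and PDP2 lost and GOT2 added, and with FPKM as deposited 2 up and 2 down. Over all tested genes, 998 up and 794 down became 329 and 191 without the filter, 383 and 2387 with TPM, 436 and 416 without the trend, 662 and 1124 with FPKM as deposited, and 1302 and 1512 with voom. Of the other pathway genes, 3 up and 5 down became 1 and 0 without the filter, 1 and 1 without the trend, 2 and 8 with TPM and 3 and 3 with TMM factors.

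Same-numbered libraries did not deviate together, with correlations of their deviations of 0.0634, 0.0999 and -0.0535. With 3 libraries in each group, these values cannot decide whether same-numbered libraries were handled together. With the replicate number as a block, 2 members were up and 1 down (FH and PDP2 lost), the other pathway genes were 3 up and 3 down, and all tested genes 848 up and 762 down.

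Some members not called changed sign. With FPKM as deposited PDHA1 had -0.068, PDK1 -0.061 and SLC25A1 -0.012. With quantile normalization PDHA1 had -0.022, PDK3 0.022, IDH2 -0.022, MDH1 -0.057, MDH2 -0.14 and SLC25A1 -0.093. With TPM PDHA1 had -0.19, PDHB -0.058, DLD -0.091, PDK1 -0.17, IDH2 -0.11, IDH3B -0.0082, IDH3G -0.087, MDH1 -0.11, MDH2 -0.10, ME1 -0.067 and SLC25A1 -0.13. PDP1 had 0.0086 with TMM factors and 0.012 with factors over all genes above 0.

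With each library left out in turn, members called ranged from 0 to 7 up and from 0 to 3 down, other pathway genes from 0 to 4 up and from 0 to 7 down, and all tested genes from 55 to 1813 up and from 14 to 1682 down. Log2(FC) that crossed 0 ranged from -0.070 to 0.054 for PDHA1, -0.035 to 0.089 for PDK1, -0.12 to 0.031 for PDK3, -0.12 to 0.083 for PDP1 and -0.059 to 0.17 for SLC25A1. Differences of shares that crossed 0 ranged, in percentage points, from -1.28 to 0.399 for IDH3G, -2.26 to 0.656 for SUCLA2, -1.29 to 2.04 for MDH1 and -0.756 to 2.61 for MPC1. Depth limited PDK4 most, with 15 to 54 reads per library.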
